A study of Homo sapiens with 9 samples.

Results

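This account covers 9 genes of the integrated stress response and the oxidative stress response, measured by RNA sequencing in MDA-MB-231. This established human cell line comes from a triple-negative breast cancer. The genes are ATF4, DDIT3, TRIB3, ASNS, SESN2, DDIT4, HSPA5, HMOX1 and TXNIP. The deposited values belong to genomic intervals without gene names, so each gene was taken as the hg19 interval with the highest overlap over union with a given span of that gene. An interval was matched for 8 of the 9 genes, out of 55527 intervals in all, with an overlap over union between 0.961 and 0.998. The span of TXNIP overlapped none of the chromosome 1 intervals used, so TXNIP was not analysed here.

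All cells had been infected with lentivirus carrying a short hairpin RNA and selected with puromycin. The hairpin was shCTDP1-#2, shCTDP1-#1 or the scrambled control shScr, with 3 libraries each and 9 in all. CTDP1 is a phosphatase that acts on the tail of the largest subunit of RNA polymerase II. The labels do not say whether the 3 libraries of a group are separate cultures, so the p-values cover the spread among these libraries alone, and that spread may be technical. The level of CTDP1 and the markers of the cell line were not analysed here, because no table of hg19 gene positions was at hand. For the same reason no other genes of the stress pathways are reported.

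In the integrated stress response, several kinases that sense different stresses phosphorylate the initiation factor eIF2. General protein synthesis then falls while translation of ATF4, a transcription factor, rises, so the level of ATF4 mRNA need not follow that of its protein. ATF4 acts on genes of amino acid supply and on regulators of growth and survival, among them ASNS, TRIB3, SESN2, DDIT4 and DDIT3. The endoplasmic reticulum chaperone HSPA5 is a standard readout of the unfolded protein response, and HMOX1 a standard readout of the NRF2 response to oxidative stress.

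The stretches upstream of the transcription start are shown for the members that hold a letter match to any of the 4 motifs searched. They come from RefSeq's promoter table (GRCh38.p14), where 7 of the 8 matched genes, all but HMOX1, had an entry. The 250 bases before each listed start were searched on both strands for 4 motifs. These were TGATGNAA (the composite element bound by ATF4 and C/EBP proteins), TGACNNNGC (the core of the antioxidant response element), CACGTG (an E-box) and the endoplasmic reticulum stress response element, in which CCAAT and CCACG stand 9 bases apart. Matches are in capitals, and each sequence reads 5′ to 3′ on the strand of its gene. ASNS lies on the minus strand at chr7:97872409-97872658, HSPA5 on the minus strand at chr9:125241344-125241593 and ATF4 on the plus strand at chr22:39520309-39520558.
ASNS: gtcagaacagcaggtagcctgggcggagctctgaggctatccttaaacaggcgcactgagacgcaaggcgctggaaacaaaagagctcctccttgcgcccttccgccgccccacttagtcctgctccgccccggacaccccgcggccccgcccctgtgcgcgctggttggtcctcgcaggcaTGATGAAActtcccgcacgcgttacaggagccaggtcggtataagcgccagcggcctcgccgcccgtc
HSPA5: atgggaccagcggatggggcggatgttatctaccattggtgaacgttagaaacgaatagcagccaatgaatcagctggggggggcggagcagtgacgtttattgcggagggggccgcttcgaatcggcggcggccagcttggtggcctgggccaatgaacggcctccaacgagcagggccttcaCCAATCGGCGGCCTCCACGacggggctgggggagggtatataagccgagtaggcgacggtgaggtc
ATF4: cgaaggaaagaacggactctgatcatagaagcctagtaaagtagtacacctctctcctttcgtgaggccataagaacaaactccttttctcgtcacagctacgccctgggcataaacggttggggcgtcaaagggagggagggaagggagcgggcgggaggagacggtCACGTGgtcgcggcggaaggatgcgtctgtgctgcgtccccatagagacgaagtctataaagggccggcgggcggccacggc

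The ASNS match lies 68 to 61 bases before the start, and 3.14% of the 35116 upstream windows in the table held that motif. The second listed start of ASNS had no match. The HSPA5 match lies 66 to 48 bases before the start, and 26 of all windows (0.074%) held that motif. The ATF4 match lies 82 to 77 bases before the start, and 6.34% of all windows held an E-box. The windows of DDIT3, TRIB3, SESN2 and DDIT4 held none of the 4 motifs, and the antioxidant core, present in 10.9% of all windows, was found in none of the windows of these 7 genes. These are letter matches in a short stretch, and no binding was measured.

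Levels are given in TPM, the unit that the deposited values were taken to have. TPM is a relative transcript abundance that is scaled for transcript length and to the same total in each library, so genes can be ordered within a library. TPM keeps no read number, so the depth of the libraries is unknown. Mitochondrial intervals took 1.64% to 2.28% of the TPM with shCTDP1-#2, 1.90% to 2.00% with shCTDP1-#1 and 1.12% to 4.47% with shScr, where shScr replicate 1 stood apart as the highest. In bulk RNA, fewer cells that express a gene and less RNA per cell cannot be told apart. Changes were tested with limma on log2(TPM + 1) across the 15011 intervals that reached 1 TPM in 3 or more libraries, and an interval was called at a Benjamini-Hochberg adjusted p under 0.05. All 8 matched genes passed that filter. Intervals at 1 TPM or more numbered 14542 to 14699 per library with shCTDP1-#2, 14376 to 14516 with shCTDP1-#1 and 13637 to 13753 with shScr. The filter can thus take in intervals that reach 1 TPM only with a CTDP1 hairpin. Their part in the shares of all tested intervals called was not tested.

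The members covered a wide range of levels, and their order differed between the groups. ATF4 and HSPA5 were the most abundant in every group, above at least 96.9% of the tested intervals. In shScr libraries these genes averaged 394 and 396 TPM, with overlapping ranges. The least abundant member was HMOX1 with either CTDP1 hairpin, at 20.8 ± 1.3 TPM with shCTDP1-#2 and 17.9 ± 1.7 TPM with shCTDP1-#1, and SESN2 with shScr, at 8.37 ± 0.36 TPM (mean ± SD, n = 3 each). DDIT3 was the third most abundant with both CTDP1 hairpins, and with shScr it stood below DDIT4 as well. Several neighbours in the order did not separate. The ranges of HMOX1 and SESN2 overlapped with shCTDP1-#2, those of ASNS and DDIT4 overlapped with shCTDP1-#2, and those of ASNS and DDIT3 overlapped with shScr.

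**Figure D1:**
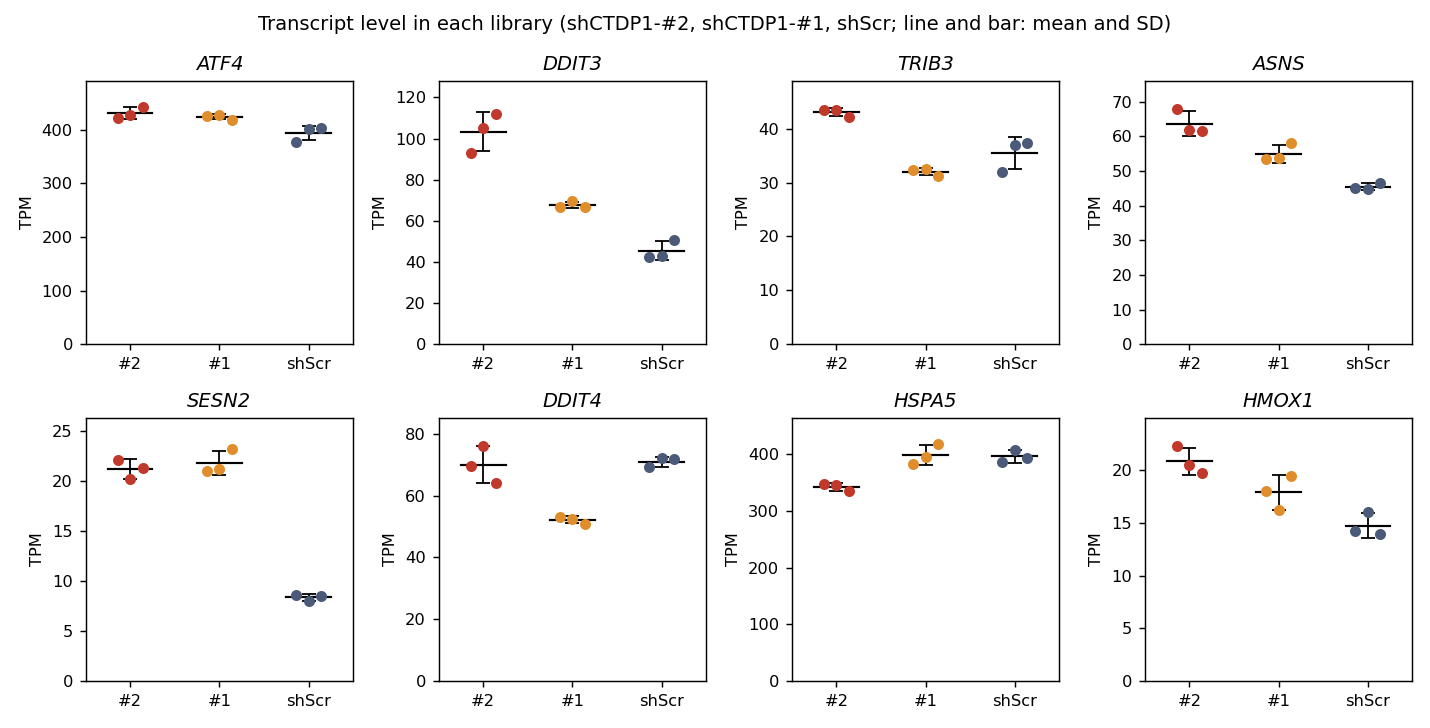
TPM of the 8 matched genes in each library, with shCTDP1-#2, shCTDP1-#1 and shScr from left to right; points are libraries, and the line and bar give the mean and SD of 3. SESN2 stands at 20.2 TPM or more in all CTDP1 hairpin libraries and at 8.6 TPM or less in shScr libraries, while DDIT3 forms 3 separate steps.

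Most of the stress genes were higher with a CTDP1 hairpin, but by very different amounts. With shCTDP1-#2 against shScr, DDIT3, SESN2, ASNS, HMOX1, TRIB3 and ATF4 rose, HSPA5 fell, and DDIT4 was not called. That is 7 of 8 genes called, where 64.0% of all tested intervals were called. With shCTDP1-#1 against shScr, SESN2, DDIT3, ASNS, HMOX1 and ATF4 rose, DDIT4 fell, and TRIB3 and HSPA5 were not called. That is 6 of 8 genes, where 63.1% of all tested intervals were called. Over all tested intervals, 39.5% were called higher and 24.6% lower with shCTDP1-#2, and 35.4% were called higher and 27.7% lower with shCTDP1-#1. With so few genes, these counts do not set the list apart from the other intervals. The median log2 change of the 8 genes was 0.37 with shCTDP1-#2 and 0.19 with shCTDP1-#1, where the median of all tested intervals was 0.13 and 0.07. The median absolute log2 change of the genes, 0.37 and 0.27, was no larger than the 0.39 of all tested intervals with either hairpin. Both comparisons share the 3 shScr libraries.

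The scaling between libraries bears on the small changes. Median-of-ratios scaling moved the median of all tested intervals by -0.12 with shCTDP1-#2, and the share of calls that were higher was then 50.3%, against 61.6% with TPM as deposited. Under that scaling 5 members were called with shCTDP1-#2, where 62.9% of all tested intervals were called: DDIT3, SESN2, ASNS and HMOX1 were higher and HSPA5 was lower. With shCTDP1-#1 it also called 5 members, where 63.1% of all tested intervals were called and 51% of those calls were higher. DDIT3, SESN2 and ASNS were higher there, and DDIT4 and TRIB3 were lower.

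**Figure D2:**
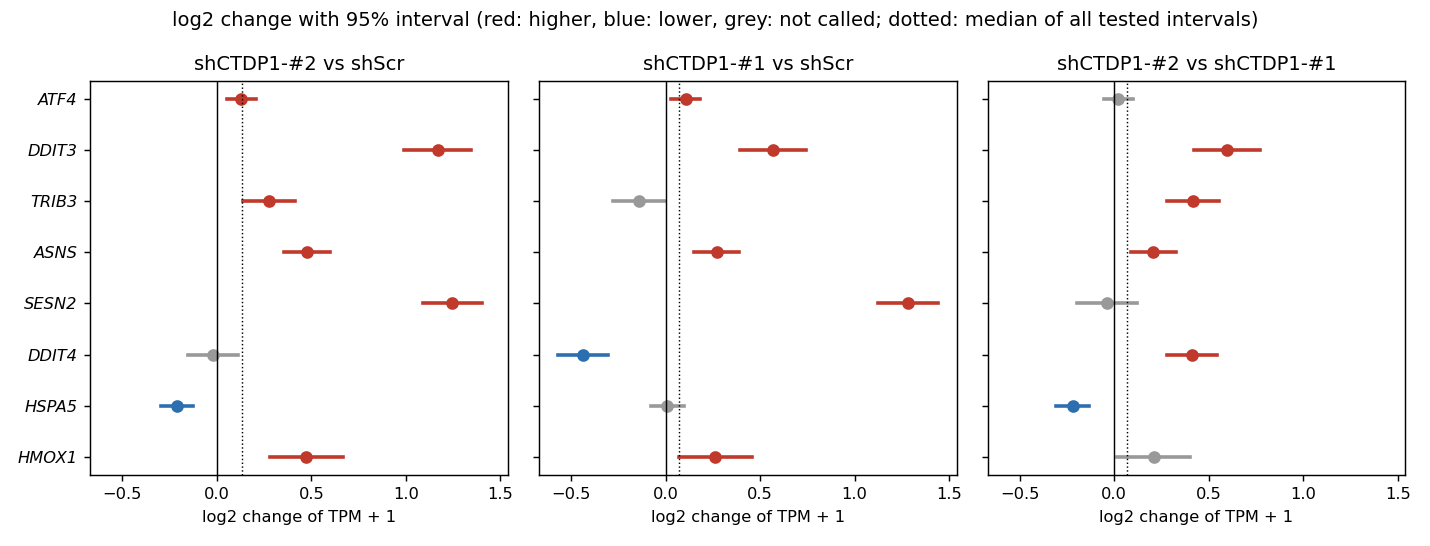
log2 change of TPM + 1 for each gene with its 95% interval, for shCTDP1-#2 against shScr, shCTDP1-#1 against shScr and shCTDP1-#2 against shCTDP1-#1; red is called higher, blue called lower, grey not called, and the dotted line is the median of all tested intervals. SESN2 changed by 1.24 and 1.28 with the hairpins and is grey between them, while TRIB3 and DDIT4 are called between the hairpins and each grey in 1 comparison with shScr.

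ATF4, the transcription factor at the centre of the response, changed little in mRNA level. The gene was taken as the interval on chromosome 22 from 39915700 to 39918691 (2992 bases). It had 422, 428 and 443 TPM with shCTDP1-#2, 427, 427 and 419 TPM with shCTDP1-#1, and 378, 401 and 403 TPM with shScr. All CTDP1 hairpin libraries lay above all shScr libraries, by a narrow margin. The mean was 1.09 times that of shScr with shCTDP1-#2 and 1.08 times with shCTDP1-#1. The log2 change was 0.13 with shCTDP1-#2 (SE 0.03, adjusted p = 0.00731), as large as the median of all tested intervals. It was 0.11 with shCTDP1-#1 (SE 0.03, adjusted p = 0.0196). Under median-of-ratios scaling ATF4 was at -0.0046 with shCTDP1-#2 (adjusted p = 0.929) and 0.05 with shCTDP1-#1 (adjusted p = 0.357), so neither call held. With shCTDP1-#2 the call was also lost under upper-quartile scaling (log2 change 0.06, adjusted p = 0.212). With shCTDP1-#1 it was also lost in limma without the trend and robust options (adjusted p = 0.0769), without shScr replicate 1 (adjusted p = 0.061), without shCTDP1-#1 replicate 1 (adjusted p = 0.0558) and without shCTDP1-#1 replicate 2 (adjusted p = 0.0586).

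DDIT3 encodes CHOP, a transcription factor that ATF4 activates and that promotes cell death under prolonged stress, and it rose with both hairpins to different levels. On chromosome 12, its interval runs from 57910371 to 57914300 (3930 bases). DDIT3 had 93.1, 105 and 112 TPM with shCTDP1-#2, 66.8, 69.5 and 66.9 TPM with shCTDP1-#1, and 42.6, 43.0 and 50.7 TPM with shScr. The 3 groups did not overlap. The mean was 2.27 times that of shScr with shCTDP1-#2 and 1.49 times with shCTDP1-#1. The log2 change was 1.17 with shCTDP1-#2 (SE 0.08, adjusted p = 5.4e-07), and 5.92% of the tested intervals rose by more. With shCTDP1-#1 it was 0.57 (SE 0.08, adjusted p = 0.000104), and 19.7% of the tested intervals rose by more. Tested against a fold change of 1.5, the rise held with shCTDP1-#2 (adjusted p = 0.00024) and not with shCTDP1-#1.

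DDIT3 shares 982 bases, 24.99% of its interval, with another interval on chromosome 12 that runs from 57869228 to 57911352. The library kit does not mark strand, so reads in the shared bases cannot be told apart. That neighbour was at 150 ± 8 TPM with shCTDP1-#2, 140 ± 6 TPM with shCTDP1-#1 and 146 ± 8 TPM with shScr (SD, n = 3 each). It was not called in any comparison, and its log2 changes against shScr were 0.04 with shCTDP1-#2 and -0.06 with shCTDP1-#1.

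SESN2 encodes sestrin 2, a stress-induced protein that senses leucine and restrains mTORC1, and it rose with both hairpins. The interval, on chromosome 1 from 28586038 to 28609002, spans 22965 bases. SESN2 had 22.1, 20.2 and 21.3 TPM with shCTDP1-#2, 21.0, 21.2 and 23.2 TPM with shCTDP1-#1, and 8.60, 7.96 and 8.55 TPM with shScr. The CTDP1 hairpin libraries overlapped each other and stood well apart from shScr. The mean was 2.53 times that of shScr with shCTDP1-#2, with a log2 change of TPM + 1 of 1.24 (SE 0.07, adjusted p = 1.51e-07). With shCTDP1-#1 it was 2.61 times that of shScr, with a log2 change of 1.28 (SE 0.07, adjusted p = 1.18e-07). The added 1 TPM lowers these changes, which were 1.33 and 1.37 with 0.1 TPM added instead. With shCTDP1-#2, 4.88% of the tested intervals rose by more, and with shCTDP1-#1, 4.05%. Against a fold change of 1.5 SESN2 passed with shCTDP1-#2 (adjusted p = 4.35e-05) and with shCTDP1-#1 (adjusted p = 2.47e-05).

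ASNS, which makes asparagine from aspartate and is a standard ATF4 target, stood at 3 separate levels. Its values come from chromosome 7, positions 97481430 to 97501854 (20425 bases), and the upstream stretch printed above holds the composite element. ASNS had 67.9, 61.7 and 61.5 TPM with shCTDP1-#2, 53.5, 53.6 and 58.0 TPM with shCTDP1-#1, and 45.1, 44.7 and 46.6 TPM with shScr. No 2 groups overlapped. The log2 change was 0.48 with shCTDP1-#2 (SE 0.05, adjusted p = 2.51e-05) and 0.27 with shCTDP1-#1 (SE 0.05, adjusted p = 0.00137). The means were 1.40 and 1.21 times the shScr mean, and both calls held when any single library was left out.

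TRIB3, a pseudokinase induced by ATF4 and CHOP that dampens ATF4 signalling and AKT, was higher with shCTDP1-#2 and not with shCTDP1-#1. The matched interval covers 16943 bases of chromosome 20, from 361261 to 378203. TRIB3 had 43.5, 43.4 and 42.2 TPM with shCTDP1-#2, 32.3, 32.5 and 31.3 TPM with shCTDP1-#1, and 32.1, 36.9 and 37.4 TPM with shScr. The shCTDP1-#2 libraries lay above all others, and the shCTDP1-#1 libraries overlapped the lowest shScr library. The log2 change was 0.28 with shCTDP1-#2 (SE 0.06, adjusted p = 0.00274), and 0.15 under median-of-ratios scaling (adjusted p = 0.0809). With shCTDP1-#1 it was -0.14 (SE 0.06, adjusted p = 0.0731). That value depended on which shScr library was left out. Without shScr replicate 1, whose mitochondrial share was highest, TRIB3 was called lower with shCTDP1-#1 (log2 change -0.21, adjusted p = 0.00712). The change was -0.11 without shScr replicate 2 (adjusted p = 0.208) and -0.10 without shScr replicate 3 (adjusted p = 0.226). TRIB3 was also called lower when TPM was rescaled without mitochondrial intervals (-0.15, adjusted p = 0.0447) and under median-of-ratios scaling (-0.20, adjusted p = 0.0235).

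DDIT4 encodes REDD1, an inhibitor of mTORC1 induced by ATF4, hypoxia and glucocorticoids, and it fell with shCTDP1-#1. This short gene was read from chromosome 10 between 74033678 and 74035794 (2117 bases). DDIT4 had 69.6, 76.2 and 64.2 TPM with shCTDP1-#2, 53.1, 52.6 and 50.9 TPM with shCTDP1-#1, and 69.2, 72.1 and 71.7 TPM with shScr. The shCTDP1-#1 libraries lay below all others, and the shCTDP1-#2 libraries spread around the shScr libraries. The shCTDP1-#1 mean was 0.735 times that of shScr. The log2 change was -0.44 with shCTDP1-#1 (SE 0.06, adjusted p = 9.22e-05), and 18.8% of the tested intervals fell by more. With shCTDP1-#2 it was -0.02 (SE 0.06, adjusted p = 0.753), with a 95% interval from -0.16 to 0.11. A second interval covers 1066 bases of DDIT4, from 74034673 to 74035738. It was listed at 0 TPM in 8 libraries and at 0.07 TPM in shCTDP1-#1 replicate 1.

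HSPA5 encodes BiP, the main chaperone of the endoplasmic reticulum, and it was lower with shCTDP1-#2. The values are those of chromosome 9 from 127997132 to 128003609 (6478 bases), and the upstream stretch of the gene holds the stress response element. HSPA5 had 347, 345 and 335 TPM with shCTDP1-#2, 383, 395 and 418 TPM with shCTDP1-#1, and 387, 408 and 394 TPM with shScr. All shCTDP1-#2 libraries lay below all others, and the shCTDP1-#1 and shScr libraries overlapped. The log2 change was -0.21 with shCTDP1-#2 (SE 0.04, adjusted p = 0.000796), or 0.864 times the shScr mean. It was 0.0086 with shCTDP1-#1 (SE 0.04, adjusted p = 0.86), with a 95% interval from -0.08 to 0.10. The fall with shCTDP1-#2 held under each scaling tried.

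HMOX1 encodes heme oxygenase 1, which breaks down heme, and it was higher with both hairpins. Like ATF4 it lies on chromosome 22, from 35776354 to 35790207 (13854 bases). HMOX1 had 22.3, 20.5 and 19.7 TPM with shCTDP1-#2, 18.1, 16.2 and 19.5 TPM with shCTDP1-#1, and 14.3, 16.1 and 13.9 TPM with shScr. All CTDP1 hairpin libraries lay above all shScr libraries, but shCTDP1-#1 replicate 2 was only just above the highest. The mean was 1.41 times that of shScr with shCTDP1-#2 and 1.21 times with shCTDP1-#1. The log2 change was 0.47 with shCTDP1-#2 (SE 0.09, adjusted p = 0.000744) and 0.26 with shCTDP1-#1 (SE 0.09, adjusted p = 0.0217). The call with shCTDP1-#1 was lost under median-of-ratios scaling (adjusted p = 0.0501). It was also lost without shScr replicate 1 (adjusted p = 0.0637), shScr replicate 3 (adjusted p = 0.0734), shCTDP1-#1 replicate 1 (adjusted p = 0.0555) or shCTDP1-#1 replicate 3 (adjusted p = 0.0819).

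**Figure D3:**
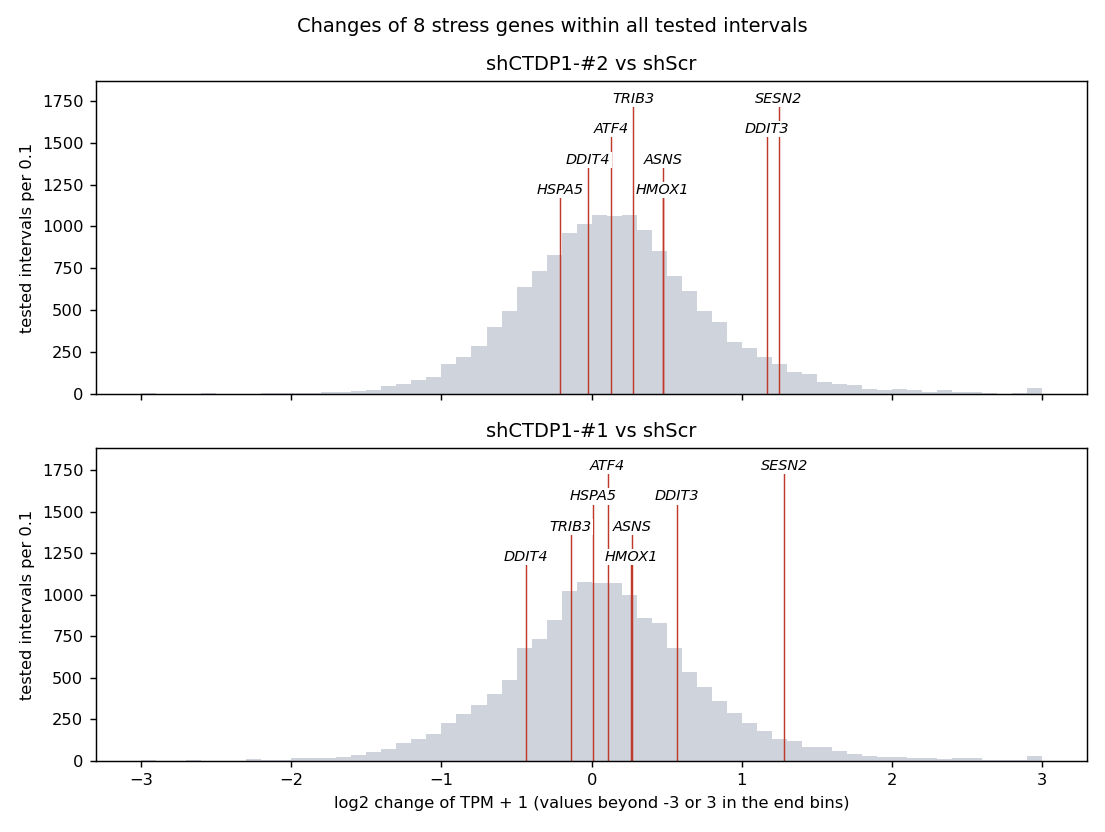
Number of tested intervals per 0.1 of log2 change (grey), for shCTDP1-#2 against shScr above and shCTDP1-#1 against shScr below, with each gene at its own log2 change (red lines). SESN2 lies in the right tail of both panels and DDIT3 in that of the upper one, while ATF4 lies near the centre of both.

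The hairpins differed from each other in 5 of the 8 genes, where 50.2% of all tested intervals were called, 30.2% higher and 20.0% lower. DDIT3, TRIB3, DDIT4 and ASNS were higher with shCTDP1-#2 than with shCTDP1-#1, and HSPA5 was lower. The differences were 0.60 for DDIT3 (SE 0.08, adjusted p = 0.000119), 0.42 for TRIB3 (SE 0.06, adjusted p = 0.000283) and 0.41 for DDIT4 (SE 0.06, adjusted p = 0.000218). They were 0.21 for ASNS (SE 0.05, adjusted p = 0.00907) and -0.22 for HSPA5 (SE 0.04, adjusted p = 0.000893). HMOX1 averaged 20.8 ± 1.3 TPM with shCTDP1-#2 and 17.9 ± 1.7 TPM with shCTDP1-#1, a difference of 0.21 that did not pass (SE 0.09, adjusted p = 0.0673), though it did without shCTDP1-#1 replicate 3 (0.27, adjusted p = 0.0367). For SESN2 the difference was -0.04 with a 95% interval from -0.19 to 0.12 (adjusted p = 0.684). For ATF4 it was 0.02 with a 95% interval from -0.05 to 0.10 (adjusted p = 0.62), and it turned to -0.05 under median-of-ratios scaling. None of the differences between the hairpins passed a test against a fold change of 1.5.

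Ratios within a library do not depend on how libraries were scaled to each other. DDIT3 stood at 22.05%, 24.6% and 25.2% of the ATF4 level with shCTDP1-#2, at 15.6%, 16.3% and 16.0% with shCTDP1-#1, and at 11.3%, 10.7% and 12.6% with shScr. The 3 groups were apart in this ratio too. SESN2 averaged 4.92% ± 0.28 of the ATF4 level with shCTDP1-#2, 5.14% ± 0.34 with shCTDP1-#1 and 2.13% ± 0.15 with shScr (SD, n = 3 each). HSPA5 averaged 79.5% ± 3.6 with shCTDP1-#2, 94.1% ± 5.2 with shCTDP1-#1 and 101% ± 2.5 with shScr. Its shCTDP1-#2 libraries lay below all others, and its shCTDP1-#1 libraries overlapped those of shScr. These ratios show that the genes changed unequally, and not which gene of a pair moved.

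By distance between profiles over the 9 libraries, after each gene's own mean was subtracted on the log2(TPM + 1) scale, ASNS and HMOX1 were the closest pair, at 0.22. DDIT4 and TRIB3 were each other's nearest at 0.46, both lower with shCTDP1-#1 than with shCTDP1-#2. ATF4 and HSPA5, which varied little, were each other's nearest at 0.45. DDIT3 was nearest to ASNS at 0.92, and SESN2 was nearest to DDIT3 at 1.02. The widest distance was 2.20, between DDIT4 and SESN2, which both encode inhibitors of mTORC1. The distances describe the same 9 libraries and carry no test.

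**Figure D4:**
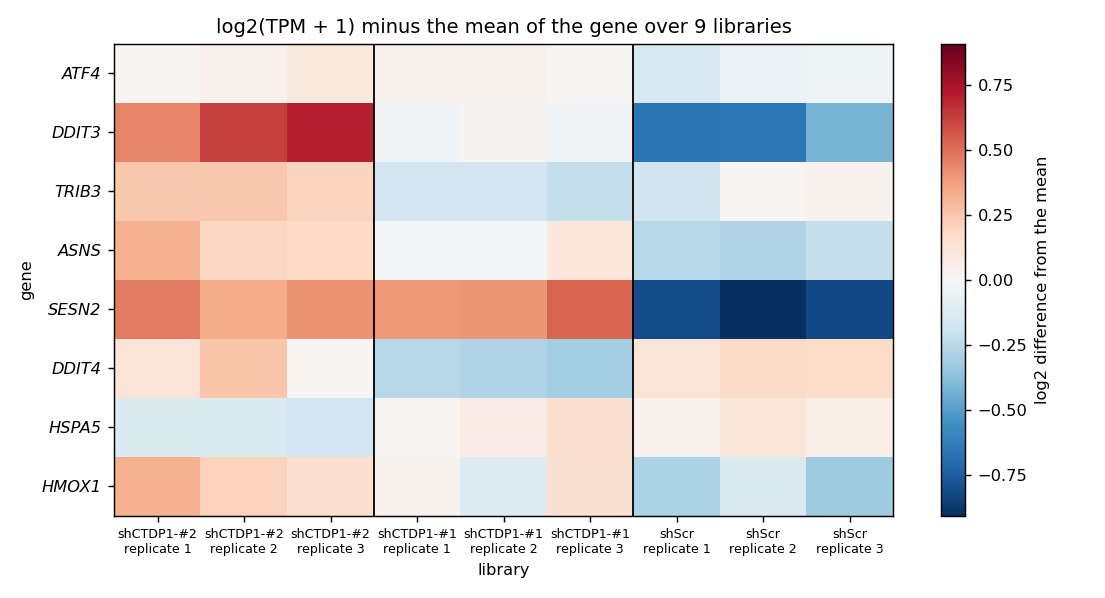
log2(TPM + 1) of each gene minus its mean over the 9 libraries, with shCTDP1-#2, shCTDP1-#1 and shScr libraries from left to right; red is above and blue below the gene's mean. SESN2 splits the CTDP1 hairpin libraries from shScr, DDIT3 falls in 3 blocks, and TRIB3 and DDIT4 are low with shCTDP1-#1.

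The next interval on either side of each member was examined by position, 16 in all, of which 12 passed the filter. With shCTDP1-#2 against shScr, 4 of these were called higher and 4 lower, and with shCTDP1-#1 against shScr, 6 higher and 4 lower. Those 6 include the interval after HSPA5, which averaged 0.15 TPM with shScr, 0.79 TPM with shCTDP1-#2 and 0.94 TPM with shCTDP1-#1. It reached 1 TPM only in CTDP1 hairpin libraries, so it passed the filter through those groups alone. Over all tested intervals 39.5% were called higher and 24.6% lower with shCTDP1-#2, and 35.4% higher and 27.7% lower with shCTDP1-#1. Counts this small do not set the neighbours apart from the other intervals. The 3 intervals described next were chosen after their values were seen. The interval after SESN2, on chromosome 1 from 28655513 to 28662476, had a log2 change of 1.15 with shCTDP1-#2 (adjusted p = 7.17e-07) and 0.29 with shCTDP1-#1 (adjusted p = 0.00934), beside 1.24 and 1.28 for SESN2 itself. The interval after DDIT3, from 57914493 to 57923931, lies 193 bases away. It averaged 9.07 TPM with shCTDP1-#2, 17.1 TPM with shCTDP1-#1 and 14.2 TPM with shScr, and was called lower with shCTDP1-#2 (log2 change -0.60, adjusted p = 0.000322) and higher with shCTDP1-#1 (log2 change 0.26, adjusted p = 0.0403), while DDIT3 rose with both. The interval before HSPA5, from 127962821 to 127996437, ends 695 bases short of it. It fell with shCTDP1-#2 (log2 change -0.81, adjusted p = 3.38e-07) and with shCTDP1-#1 (log2 change -0.61, adjusted p = 2.64e-06). The files pair no names with these intervals.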

How the data were processed

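RNA of 9 MDA-MB-231 libraries was sequenced from a TruSeq kit that does not mark strand, per the labels. STAR, RSEM and hg19 were used, per the submitters' processing notes; their versions and the annotation are not given in the sources used here. The deposited values were taken as TPM, because RSEM was used and the 57773 values of every library add up to that unit's total. The labels do not state the unit, and the total alone does not show that values were scaled for transcript length. Depth is unknown. The 2246 rows sharing an interval with another were left out. All 37 mitochondrial intervals had the same ends as in GENCODE v29, so starts count from 1. RefSeq sequences are of GRCh38.p14 and were matched by symbol; no coordinates were converted.

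log2(TPM + 1) was fitted with limma 3.58.1 (trend, robust; R 4.3.3, statmod 1.5.0), all 9 libraries together, without a block, and p-values were adjusted over 15011 intervals. The fit was also run on simulated data with far fewer changed intervals than were called here, and no conclusion is drawn from that run. The 1 TPM added before the log understates changes of low genes. Members and lists were chosen with earlier results of these data known; all matched members are named. Alternatives were other pseudocounts, filters, scalings, fits and libraries left out. Other pathway genes and cell line markers were not analysed here.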

Additional observations from a re-analysis of the deposited data

Results flagged for a closer look

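In 5 genes the hairpins did not give the same change, by a direct limma test of shCTDP1-#2 against shCTDP1-#1. The change with shCTDP1-#2 minus that with shCTDP1-#1 was 0.60 on the log2 scale for DDIT3, 0.42 for TRIB3, 0.41 for DDIT4, 0.21 for ASNS and -0.22 for HSPA5. Among all tested intervals 50.2% were called in that comparison. TRIB3 and DDIT4 stood lower with shCTDP1-#1 than in most or all shScr libraries, while DDIT3 and ASNS stood above all shScr libraries with both hairpins. The part of the CTDP1 level in these differences was not tested.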

How the results depend on the processing

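Tested against a fold change of 1.5, 2 genes were called with shCTDP1-#2 (2 higher), 1 with shCTDP1-#1 (1 higher) and 0 between the hairpins (0 higher), where 13.4%, 13.7% and 4.42% of all tested intervals were called, since that limma test asks for a larger change; between the hairpins 0 genes had an unadjusted p under 0.05 in it. Without the fold limit, at an adjusted p under 0.05, those counts were 7, 6 and 5. Of all tested intervals 64.0%, 63.1% and 50.2% were then called. Median-of-ratios scaling left 3 genes higher with shCTDP1-#1, where 63.1% of all tested intervals were called and 51% of those calls were higher. Leaving out each library in turn gave 7 called (6 higher) with shCTDP1-#2 throughout, where 59.6% to 64% of all tested intervals were called. It gave 4 to 6 (3 to 5 higher) with shCTDP1-#1, where 58.8% to 63.2% were called. Between the hairpins it gave 5 to 6 (4 to 5 higher), where 45% to 50.1% were called. The lowest count of 3 higher, with shCTDP1-#1, came without shScr replicate 1 and without shCTDP1-#1 replicate 1.

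Signs turned only for small values. ATF4 with shCTDP1-#2 was at -0.0046 under median-of-ratios scaling, and between the hairpins at -0.050 under that scaling and -0.041 under upper-quartile scaling. HSPA5 with shCTDP1-#1 was at -0.053 and -5e-04 under these scalings, at -0.0083 without shScr replicate 1 and at -0.026 without shCTDP1-#1 replicate 3. With single libraries left out, DDIT4 with shCTDP1-#2 ran from -0.085 to 0.037 (highest without shCTDP1-#2 replicate 3), and SESN2 between the hairpins from -0.069 to 0.0048 (highest without shCTDP1-#1 replicate 3). The cause was not tested. Beyond the fold test, DDIT3, SESN2 and ASNS kept each call against shScr in every alternative run. The fall of HSPA5 with shCTDP1-#2, the fall of DDIT4 with shCTDP1-#1 and the rise of HMOX1 with shCTDP1-#2 were kept in those runs too.

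Replicate numbers recur in each group, and residuals of same-numbered libraries correlated at -0.01 to 0.05, those of other-numbered ones at -0.05 to 0.02; the best partner had the same number for 8 of 9 libraries, which is a hint and not part of the design. With the number as a replicate block, 7 genes were called with shCTDP1-#2, 6 with shCTDP1-#1 and 5 between the hairpins, and no gene's call changed. Of all tested intervals 63.4%, 62.6% and 49.5% were called with that block.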
